A study of Mus musculus with 15 samples.

Results

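Potassium channel genes were taken as the protein-coding genes whose GENCODE mouse symbol starts with Kcn. The deposited table of TPM (transcript levels normalized for gene length and for the library total) held 94 of them among 56980 genes, and 5 noncoding RNAs with such symbols were left out. A member was examined in a tissue where its level reached 0.5 TPM in at least 3 libraries. By that rule 35 members passed in the tibialis anterior (TA) muscle and 41 in the heart. Of the 50 that passed in either tissue, 26 passed in both, 9 in the TA alone and 15 in the heart alone.

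All 15 libraries came from DBA/2J-mdx mice, which carry a mutation in the dystrophin gene and model Duchenne muscular dystrophy, so every control mouse was dystrophic as well and no healthy mouse was included. The TA groups were 4 mice given dasatinib and quercetin (D + Q), a senolytic drug pair meant to clear senescent cells, and 4 given vehicle, dosed 2 times per week from 3 months of age for 2 months and collected at 5 months. The heart groups were 3 D + Q–treated and 4 vehicle-treated mice dosed at the same frequency from 12 months of age for 4 months and collected at 16 months. In the TA, the D + Q–treated mice were all labelled male and the vehicle-treated mice were 2 males and 2 females. Vehicle-treated hearts came from 2 males and 2 females, and D + Q–treated hearts from 1 male and 2 females by their labels. Tissue, age and length of treatment changed together, so their parts in any TA to heart difference cannot be told apart.

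Potassium channels let potassium ions leave the cell and return the membrane to its resting voltage after excitation. Voltage-gated (Kv) channels open on depolarisation and end the action potential, with silent modulatory subunits and auxiliary subunits changing how the pore-forming ones work. Inward rectifiers (Kir) hold the resting potential, and some of them couple it to ATP or to G proteins. Tandem-pore (K2P) channels carry background leak, while calcium- or sodium-activated channels link potassium efflux to those ions. In the heart these currents set the length of the action potential. In skeletal muscle fibres they keep repetitive firing possible and limit excitability when ATP falls.

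The potassium-selective pore is the feature that most of these proteins share, and it was looked for in the coding sequences of GENCODE M39 on GRCm39. The motif searched was threonine or serine, then valine, isoleucine, leucine, threonine or phenylalanine, then glycine, then tyrosine or phenylalanine, then glycine. It was present once in 67 members and 2 times in 10, all of the latter K2P genes. The other 17, all of them auxiliary genes, held none. Every pore-forming and modulatory member held it. Of the 14 K2P genes, 4 held the motif once, and a copy with residues outside the searched ones would have been missed. The aromatic position was tyrosine in each copy found in 53 members and phenylalanine in at least 1 copy found in 24. The coding strand is shown for 9 members on which the results turn, to let the channels abundant in each tissue be compared at the same place, with the 5 codons of the motif in capitals.
Kcnc1: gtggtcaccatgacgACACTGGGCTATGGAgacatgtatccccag
Kcnc4: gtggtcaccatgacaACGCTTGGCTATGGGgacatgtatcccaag
Kcna7: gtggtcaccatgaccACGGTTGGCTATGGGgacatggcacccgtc
Kcnma1: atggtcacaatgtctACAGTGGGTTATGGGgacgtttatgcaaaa
Kcnj11: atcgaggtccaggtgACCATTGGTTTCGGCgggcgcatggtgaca
Kcnj3: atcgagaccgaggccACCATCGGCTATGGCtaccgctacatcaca
Kcnj5: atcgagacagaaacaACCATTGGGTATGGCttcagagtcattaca
Kcnh2: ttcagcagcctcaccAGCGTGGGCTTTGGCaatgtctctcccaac
Kcnk3: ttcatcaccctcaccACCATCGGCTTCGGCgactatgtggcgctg
These stretches lie in coding exons at chr7:46077382-46077426 (+) for Kcnc1, chr3:107355100-107355144 (-) for Kcnc4, chr7:45058870-45058914 (+) for Kcna7, chr14:23578466-23578510 (-) for Kcnma1 and chr7:45748905-45748949 (-) for Kcnj11. The others lie at chr2:55327624-55327668 (+) for Kcnj3, chr9:32233840-32233884 (-) for Kcnj5, chr5:24530538-24530582 (-) for Kcnh2 and chr5:30779531-30779575 (+) for Kcnk3. For Kcnk3 the second of its 2 motifs is given, since the flanks of the first cross an exon boundary. Kcnj11, Kcnh2 and this motif of Kcnk3 have a phenylalanine codon at the aromatic position, and the other 6 have a tyrosine codon.

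Within groups, log2 TPM of pairs of libraries correlated at 0.949 to 0.983, and no 2 libraries were identical. The cardiomyocyte markers summed to 13881 to 18229 TPM in hearts and 51.8 to 116 TPM in TA, whereas fast-fibre markers summed to 40715 to 54999 TPM in TA and 1331 to 1783 TPM in hearts, which matched the tissue labels. Atrial markers set the D + Q–treated hearts apart: the 6 of them summed to 382 to 427 TPM there and to 864 to 4262 TPM in vehicle-treated hearts. D + Q–treated hearts also had 22579 to 22818 genes above 0, against 24089 to 25378 in vehicle-treated hearts, and their 10 most abundant genes took 45.4% to 47.3% of all TPM, against 50.1% to 50.7%. D + Q–treated heart replicate 3, labelled male, held 47.2 TPM of Xist, the noncoding RNA of the inactive X chromosome, and 0.016 TPM of the Y-linked Ddx3y, as the labelled females did. By these transcripts all 3 D + Q–treated hearts read female, against 2 of the 4 vehicle-treated ones.

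The summed level of all 94 members was 251 to 379 TPM in vehicle-treated TA, 277 to 326 TPM in D + Q–treated TA, 360 to 414 TPM in vehicle-treated hearts and 428 to 460 TPM in D + Q–treated hearts. A few genes made up most of it. In the TA the 8 most abundant members, led by Kcnc1, Kcnc4, Kcnj11, Kcna7, Kcnj2, Kcnj12 and Kcnq5, held 69.4% of the sum. In the heart the first 8 were Kcnip2, Kcnk3, Kcng2, Kcnj11, Kcnh2, Kcnj5, Kcnj3 and Kcnj14, with 71.7%. Only Kcnj11, the pore of the ATP-sensitive channel, was in both sets. Pore-forming Kv genes took 53.6% of the members' sum in vehicle-treated TA and 17.6% in vehicle-treated hearts. Kv auxiliary genes took 2.52% and 25.6%, and K2P genes 2.11% and 16.7%. The share of inward rectifiers was similar in the 2 tissues, at 28.7% and 28.1%.

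**Figure D1:**
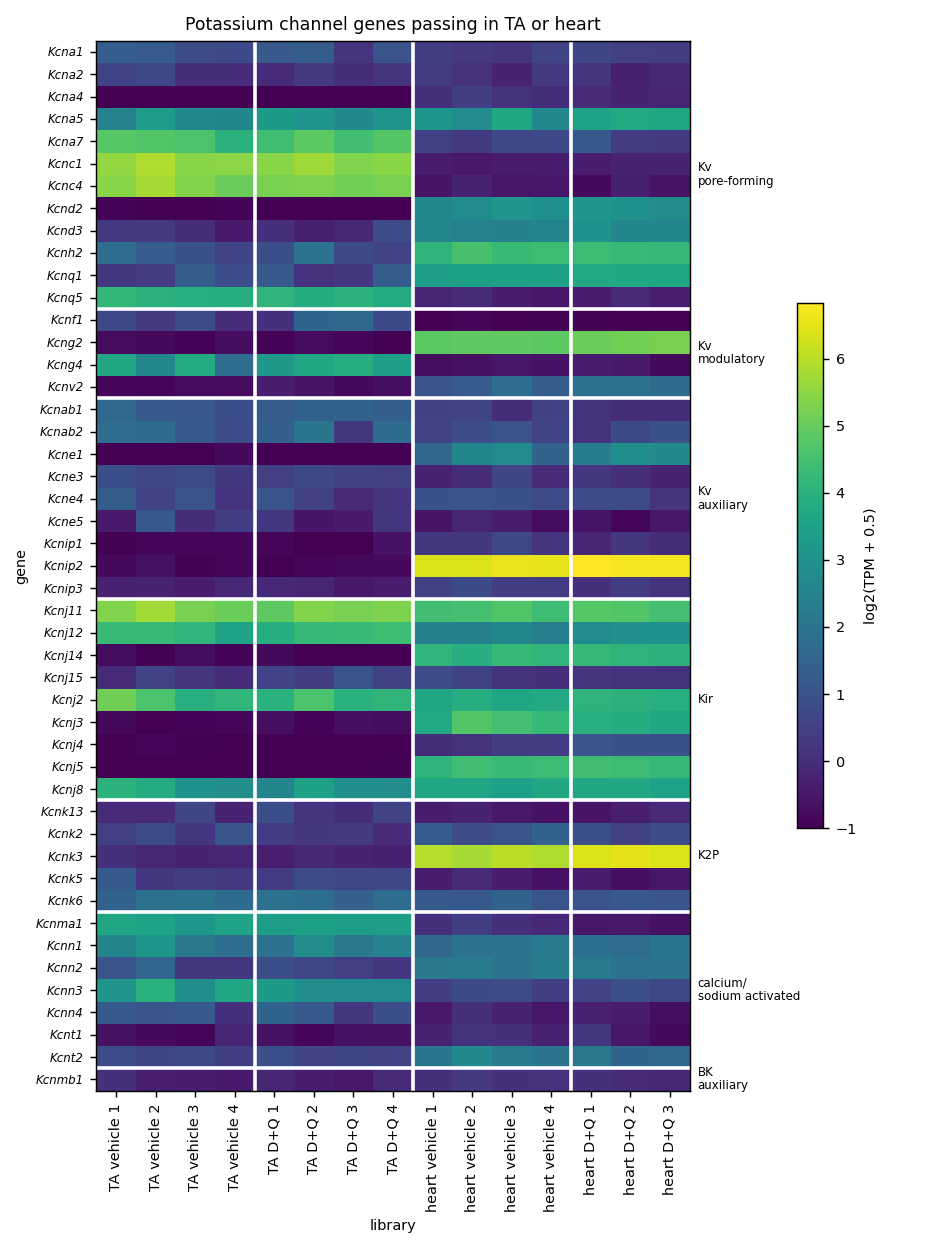
Level of potassium channel genes that passed the TPM minimum in either tissue (rows, by family, 47 of the 50 drawn) in each of the 15 libraries (columns, by group), coloured by log2(TPM + 0.5). The brightest TA rows are Kcnc1, Kcnc4 and Kcnj11, and the brightest heart rows are Kcnip2 and Kcnk3, which reach at most 0.143 TPM and 0.557 TPM in any TA library.

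The other 44 members passed in neither tissue. Of these, 3 were listed at 0 in every library, 20 stayed below 0.1 TPM throughout, and 5 reached 0.5 TPM in at least 1 library. The highest value among them was 1.49 TPM for Kcna3, a channel of lymphocytes and macrophages, in 1 D + Q–treated TA, where the other 7 TA libraries held 0.0376 to 0.531 TPM. The minimum fell in a gap in the TA, where the third-highest library held 0.711 TPM for Kcne5, just inside, and 0.423 TPM for Kcnk3, just outside. In the heart it fell between 0.531 TPM for Kcne3 and 0.443 TPM for Kcna6. Among members that passed, the coefficient of variation between mice had a median of 37.1% in vehicle-treated TA, 20.9% in D + Q–treated TA, 19.1% in vehicle-treated hearts and 10.2% in D + Q–treated hearts.

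The sharpest differences among these genes were between the tissues. In vehicle-treated mice, 20 of the 50 members were higher in TA and 19 higher in heart (limma adjusted p below 0.05 and an absolute log2 difference above 0.5). Over all 17516 genes tested, 23.1% were higher and 14.4% lower in TA by the same rule. Of the 50 members, 9 passed the minimum in TA alone and 15 in heart alone. These entered the test through 1 tissue, so counts of tissue calls, for members and for all genes, are partly set by the filter. The median log2 difference, TA minus heart, was 0.02 over the members and 0.16 over all genes. With samples scaled by the median of ratios the median of all genes moved to -0.01, the members' counts became 16 and 21, and the split over all genes went from 4042 higher and 2524 lower to 2876 and 3333. Of the 39 members called, 35 were also called after that scaling. Differences are given here on the log2(TPM + 0.5) scale, which understates those of genes near 0.

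**Figure D2:**
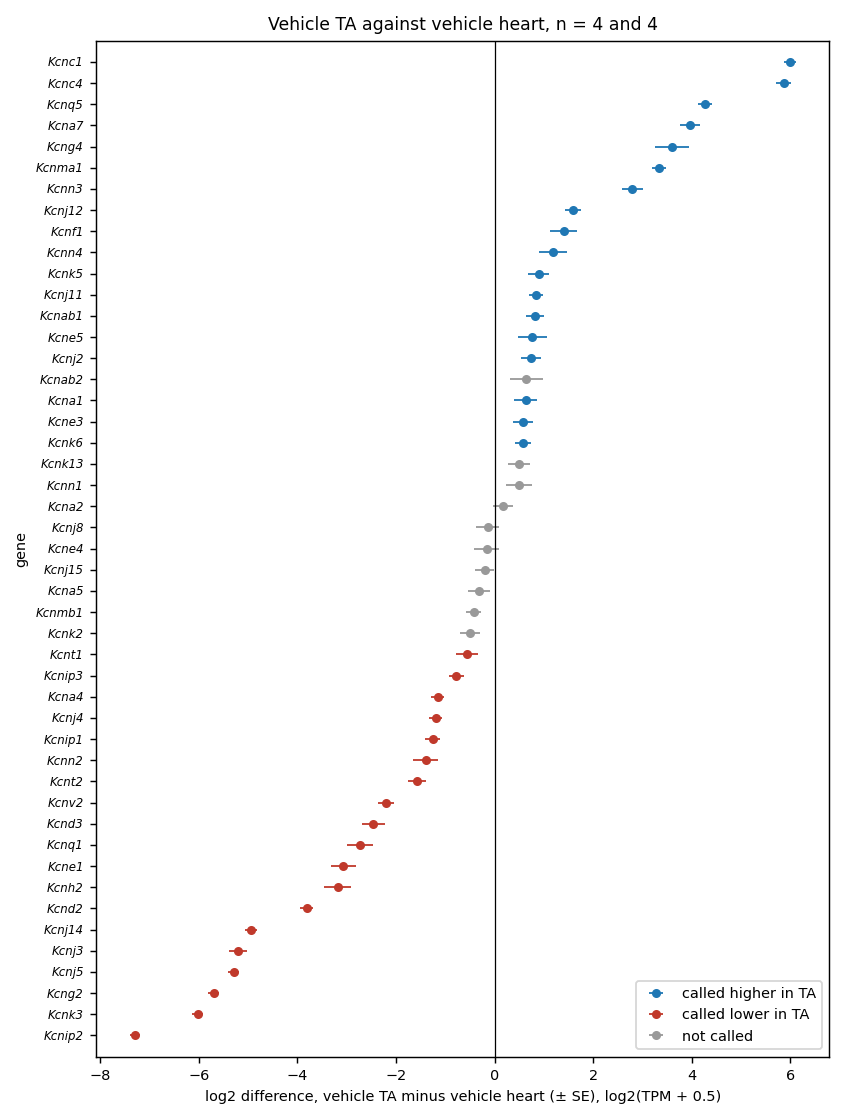
Log2 difference between vehicle-treated TA and vehicle-treated heart (x axis, mean and SE, 4 mice each) for 47 of the 50 members (y axis, ordered by difference). The members called higher in TA are led by Kcnc1 and Kcnc4 at 5.996 and 5.87, and those called lower by Kcnip2 and Kcnk3 at -7.29 and -6.03.

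Among pore-forming Kv genes, 7 of 15 were higher in TA and 5 higher in heart. Kcnc1, a fast-deactivating channel best known from rapidly firing neurons, was the most abundant member of the TA, at 46.2, 58.9, 42.7 and 44.2 TPM in the 4 vehicle-treated mice. In vehicle-treated hearts it was at 0.259, 0.225, 0.273 and 0.257 TPM, under the minimum. The log2 difference was 5.996 (SE 0.12; limma adjusted p = 4.59e-15).
Its paralog Kcnc4 was at 42.7, 55.1, 40.8 and 32.1 TPM in vehicle-treated TA and at 0.164 to 0.351 TPM in vehicle-treated hearts, a difference of 5.87 (SE 0.16; limma adjusted p = 1.14e-13). The ratio of Kcnc1 to Kcnc4 stayed narrow in the TA, at 1.04 to 1.38 in vehicle-treated and 1.13 to 1.35 in D + Q–treated mice. Kcna7, a muscle Kv channel, held 27.4, 25.3, 24.0 and 15.9 TPM in vehicle-treated TA and 0.759 to 1.16 TPM in vehicle-treated hearts. Kcnq5, of the M-current family, differed by 4.28 (SE 0.14). The groups did not overlap for any of these 4 genes. Of them, Kcnc1, Kcnc4 and Kcnq5 passed the minimum in TA alone and so entered the test through the tissue where they were high.

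The Kv genes of the heart were those of its repolarising currents. Kcnd2, a pore of the fast transient outward current, was at 5.60, 6.52, 7.97 and 7.07 TPM in vehicle-treated hearts and at 0 to 0.0327 TPM in vehicle-treated TA. Kcnh2, the pore of the rapid delayed rectifier, was at 16.5, 23.1, 18.9 and 20.7 TPM in vehicle-treated hearts and 2.94, 1.92, 1.42 and 1.01 TPM in vehicle-treated TA, a difference of -3.18 (SE 0.28; limma adjusted p = 1.78e-07). Kcnq1, the pore of the slow delayed rectifier, was at 9.87, 10.5, 10.7 and 10.5 TPM in vehicle-treated hearts and at 0.699 to 1.98 TPM in vehicle-treated TA. Not all cardiac Kv genes followed that order. Kcna5, which carries the ultrarapid rectifier current, differed between the tissues by -0.31 (SE 0.22; limma adjusted p = 0.276).

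The silent modulatory subunits, which form channels only with other Kv subunits, split by tissue. Kcng2 was at 28.2, 29.5, 29.8 and 28.7 TPM in vehicle-treated hearts and at 0.0223 to 0.0998 TPM in vehicle-treated TA. Kcng4 was at 12.2, 5.69, 13.5 and 2.96 TPM in vehicle-treated TA and at 0.105 to 0.193 TPM in vehicle-treated hearts. Kcnf1, of the same kind, was a TA gene as well, at 0.492 to 1.22 TPM in vehicle-treated TA and at most 0.0493 TPM in vehicle-treated hearts. Differences were -5.70 (SE 0.11), 3.60 (SE 0.34) and 1.40 (SE 0.28), and all 3 were called. Kcng2 passed the minimum in heart alone, and Kcng4 and Kcnf1 in TA alone. Each thus entered the test through the tissue where it was high, so these calls are partly set by the filter.

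Kcnip2, the calcium-binding auxiliary subunit of the transient outward channel, had the highest level of any member in the heart. It was at 82.5, 82.9, 96.9 and 92.6 TPM in vehicle-treated hearts and at 0.0152 to 0.143 TPM in vehicle-treated TA, the widest difference among the 50 members at -7.29 (SE 0.11; limma adjusted p = 4.14e-16). It exceeded the summed level of its pore-forming partners Kcnd2 and Kcnd3 by 7.19 to 7.58 times in vehicle-treated hearts and 7.23 to 8.39 times in D + Q–treated hearts. Kcne1, the partner of Kcnq1, was at 2.49, 5.57, 6.38 and 2.33 TPM in vehicle-treated hearts and above 0 in 1 TA library of 8. In vehicle-treated hearts the lower pair of Kcne1 values came from the labelled males and the higher pair from the labelled females.

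The inward rectifier genes that passed the minimum in TA, Kcnj2, Kcnj8, Kcnj11, Kcnj12 and Kcnj15, also passed in the heart, and Kcnj3, Kcnj4, Kcnj5 and Kcnj14 passed in the heart alone. Kcnj2 and Kcnj12, pores of the resting inward rectifier current, were both higher in TA, by 0.74 (SE 0.21) and 1.59 (SE 0.17). Kcnj12 was at 19.1, 18.7, 17.1 and 10.8 TPM in vehicle-treated TA and at 4.76, 4.86, 5.80 and 4.63 TPM in vehicle-treated hearts. The ratio of Kcnj12 to Kcnj2 was 0.559 to 1.14 in vehicle-treated TA and 0.346 to 0.483 in vehicle-treated hearts.
Kcnj3 and Kcnj5, which together form the acetylcholine-gated channel of the heart, were near 0 in TA, as was Kcnj14. In vehicle-treated hearts Kcnj3 was at 12.7, 26.3, 21.9 and 18.3 TPM, Kcnj5 at 16.4, 21.2, 19.3 and 20.0 TPM and Kcnj14 at 17.2, 14.2, 18.3 and 17.1 TPM.

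The ATP-sensitive channel had transcripts of its genes in both tissues, at different relative levels. Its pore gene Kcnj11 was higher in TA by 0.83 (SE 0.14; limma adjusted p = 0.000199), at 40.0, 52.8, 36.5 and 32.9 TPM against 21.1, 22.0, 25.3 and 20.7 TPM in vehicle-treated mice. Kcnj8, the alternative pore and best known from vessels, was at 16.1, 13.5, 7.45 and 6.84 TPM in vehicle-treated TA and at 11.8, 11.6, 10.1 and 12.1 TPM in vehicle-treated hearts, which was not called (limma adjusted p = 0.666). Of the sulfonylurea receptor genes that complete the channel, Abcc9 was at similar levels in both tissues and Abcc8 was higher in heart, with a TA minus heart difference of -2.74 (SE 0.19). Abcc9 exceeded Abcc8 by 62.0 to 119 times in vehicle-treated TA and 7.27 to 11.3 times in vehicle-treated hearts.

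K2P genes were few in number and dominated by Kcnk3, an acid-sensitive leak channel, in the heart. Kcnk3 (chr5:30745243-30783689, plus strand) was at 61.6, 55.4, 64.0 and 59.2 TPM in vehicle-treated hearts and at 0.557, 0.438, 0.339 and 0.393 TPM in vehicle-treated TA, a difference of -6.03 (SE 0.11; limma adjusted p = 1.26e-15). Kcnk6, a leak channel also found in immune cells, was the K2P gene of highest mean level in the TA, at 2.19, 3.40, 3.52 and 2.86 TPM, and was higher there by 0.58 (SE 0.16).

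Calcium-activated genes were mostly TA genes and the sodium-activated Kcnt2 a heart gene. Kcnma1, the pore of the large-conductance BK channel, was at 11.6, 11.0, 8.44 and 10.9 TPM in vehicle-treated TA and 0.532, 0.880, 0.571 and 0.410 TPM in vehicle-treated hearts, a difference of 3.33 (SE 0.14; limma adjusted p = 4.06e-11). The small-conductance channels divided: Kcnn3, which denervated muscle is known to express, was higher in TA by 2.79 (SE 0.22), and Kcnn2 was higher in heart, with a TA minus heart difference of -1.40 (SE 0.25). Kcnt2 was at 1.22, 1.05, 1.17 and 0.867 TPM in vehicle-treated TA and at 3.59, 5.86, 4.11 and 3.56 TPM in vehicle-treated hearts. Kcnn4, a calcium-activated channel of blood and immune cells, was higher in TA by 1.19 (SE 0.28). Macrophage markers summed to 281 to 501 TPM in vehicle-treated TA and 160 to 263 TPM in vehicle-treated hearts, and their part in the Kcnn4 and Kcnk6 values was not tested. In whole tissue, fewer cells of a type and less RNA per cell cannot be told apart.

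Read by list, 12 of the 14 skeletal muscle channel genes were higher in TA and 1, Kcnn2, higher in heart. Of the 16 cardiac repolarisation genes, 10 were higher in heart and 3, Kcnj2, Kcnj11 and Kcnj12, higher in TA. These 3 genes stand on both lists. Among the 5 immune-cell channel genes, 4 were tested and 2 were higher in TA. Of the 5 vascular ones, Kcnma1 alone was called. Over all genes, 23.1% were higher and 14.4% lower in vehicle-treated TA by the same rule. The lists were chosen with earlier results of these data known. In D + Q–treated mice the tissue difference was similar in size, with 17 of 50 members higher in TA and 18 higher in heart, against 21.9% and 16.3% of all genes. Both tissue comparisons rest on separate mice but on 1 shared estimate of the spread.

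In the heart, D + Q treatment was compared with vehicle to ask whether potassium channel genes responded at a late stage of disease. Of 41 members, 1 was called higher and 0 lower (limma adjusted p below 0.05, log2 difference above 0.5 in size), where 0.105% and 0.211% of all 16132 genes were called. At an unadjusted p below 0.05, 9 members were higher and 4 lower, against 9.65% and 7.99% of all genes. Groups did not overlap for 8 members that were higher and 2 that were lower, against 9.63% and 5.57% of all genes. The median log2 difference was 0.01 over the members and near 0 over all genes. The 2 lower ones were Kcna4 and Kcnma1, which passed the minimum only through the vehicle-treated group. The counts at an unadjusted p became 5 higher and 2 lower without D + Q–treated replicate 3 and 8 and 1 without vehicle-treated replicate 2, and the lower one was 2 without vehicle-treated replicate 1 or D + Q–treated replicate 2. Over all genes, calls ran from 0 higher and 0 lower without vehicle-treated replicate 2 to 64 and 72 without vehicle-treated replicate 3, against 17 and 34 with all hearts. Other gene groups moved as well: of 9 circadian clock genes tested, 1 was called higher and 6 lower, all 3 red-cell genes had lower levels without overlap (median log2 difference -3.06), and 2 of 4 fibroblast markers were lower at an unadjusted p below 0.05. Their part in the members' values was not tested.

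Of the 16 cardiac repolarisation genes, 1 was called, and 6 were higher and 1 lower at an unadjusted p below 0.05. Groups did not overlap for the 6 higher genes and overlapped for the lower one, Kcnj3. Kcna4, not among these by that p, was lower without overlap, and passed the minimum only through the vehicle-treated group. The shares of all genes given above were 9.65% and 7.99% by that p, and 9.63% and 5.57% for groups that did not overlap. The median log2 difference of the list was 0.22. The median of the 5 cardiomyocyte markers was 0.26, with 4 of 5 apart, and their part was not tested.

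Kcnk3 was the member called. It was at 61.6, 55.4, 64.0 and 59.2 TPM in vehicle-treated hearts and 85.6, 91.2 and 82.7 TPM in D + Q–treated hearts. Every D + Q–treated heart was above every vehicle-treated one, and the means were 60.0 ± 3.65 TPM (SD, n = 4) and 86.5 ± 4.30 TPM (SD, n = 3). The log2 difference was 0.52 (SE 0.07; limma adjusted p = 0.0420). The direction held in all 17 alternative fits, between 0.46 and 0.57, but the adjusted p ranged from 0.0282 to 0.202 and lay above 0.05 in 11 of them. Leaving out any D + Q–treated heart, or vehicle-treated replicate 1, 2 or 4, ended the call, as did using the sex read from expression as the covariate (limma adjusted p = 0.0867). The study's own test, DESeq2 on counts with sex in the design, also reported Kcnk3 as upregulated in D + Q–treated hearts. It called more heart genes than limma on TPM did here.

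**Figure D3:**
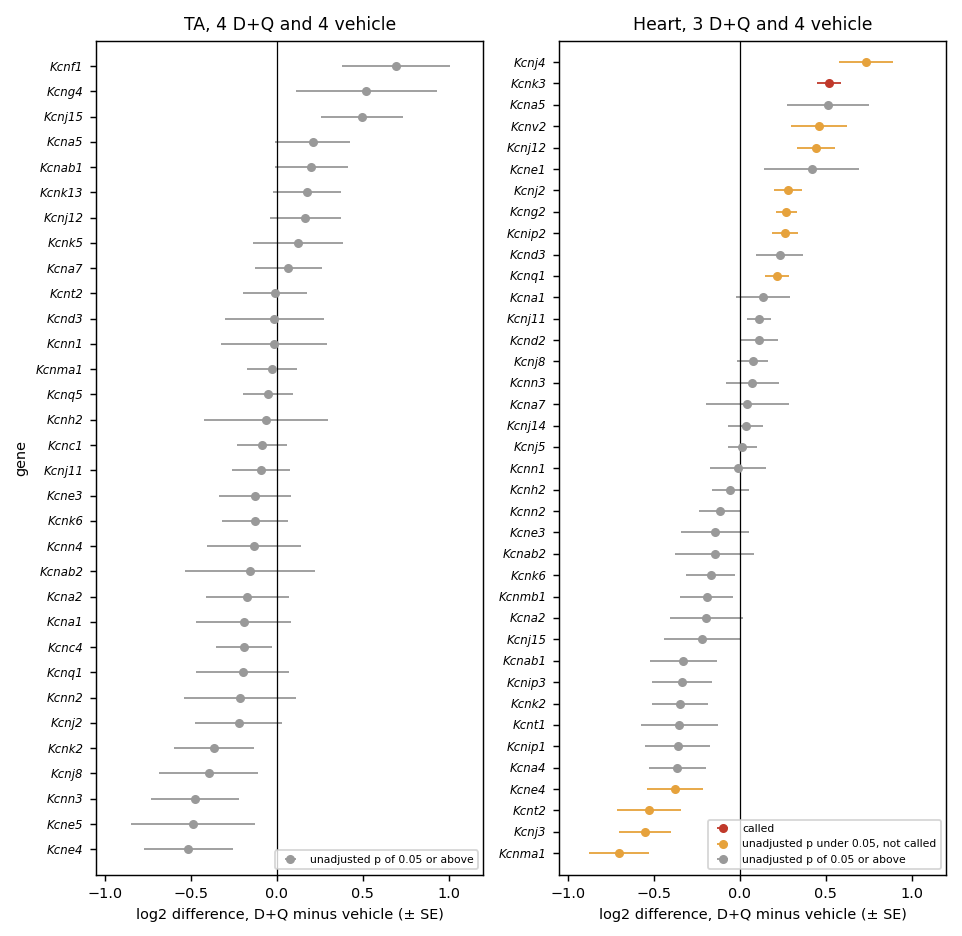
Log2 difference between D + Q– and vehicle-treated mice (x axis, mean and SE) for members tested in TA (left, 32 of 35 drawn) and in heart (right, 38 of 41 drawn), each panel ordered by its own values. In the heart, Kcnk3 at 0.52 is the call and Kcnma1 at -0.71 has the lowest value; in TA no member has an unadjusted p under 0.05.

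For 3 inward rectifiers of the Kcnj2 family, levels in D + Q–treated hearts lay above those in vehicle-treated hearts without passing the adjusted test. Kcnj4 was at 0.518, 0.596, 0.842 and 0.777 TPM in vehicle-treated hearts and 1.58, 1.44 and 1.40 TPM in D + Q–treated hearts, a difference of 0.73 (SE 0.16; limma adjusted p = 0.103). Kcnj12 was at 4.76, 4.86, 5.80 and 4.63 TPM and at 6.32, 7.27 and 7.46 TPM, a difference of 0.44 (SE 0.11; limma adjusted p = 0.126). Kcnj2, the most abundant of the family, was at 11.8, 14.0, 12.0 and 12.8 TPM and at 16.7, 15.8 and 14.5 TPM, a difference of 0.28 (SE 0.08; limma adjusted p = 0.154). The groups were apart for each of these 3. Kcnj14 of the same family differed by 0.03 (SE 0.10), and its groups overlapped.

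Among Kv subunits, Kcng2 was at 28.2 to 29.8 TPM in vehicle-treated and 33.0, 35.5 and 36.8 TPM in D + Q–treated hearts, and Kcnip2 was at 82.5 to 96.9 TPM and 113, 104 and 104 TPM. Their differences were 0.27 (SE 0.06; limma adjusted p = 0.113) and 0.26 (SE 0.08; limma adjusted p = 0.156). Kcnq1 differed by 0.21 (SE 0.07), and none of the D + Q–treated hearts overlapped the vehicle-treated ones. Kcnv2, a modulatory subunit named here after its values were seen, differed by 0.46 (SE 0.16; limma adjusted p = 0.209). Kcnh2 and Kcnd2 differed by -0.06 (SE 0.11) and 0.11 (SE 0.11), with overlapping groups. Cardiomyocyte markers were also higher in D + Q–treated hearts: 4 of 5 had groups that did not overlap, their median log2 difference was 0.26, and their sum was 17103 to 18229 TPM against 13881 to 15254 TPM. Their part in the values of these channel genes was not tested.

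**Figure D4:**
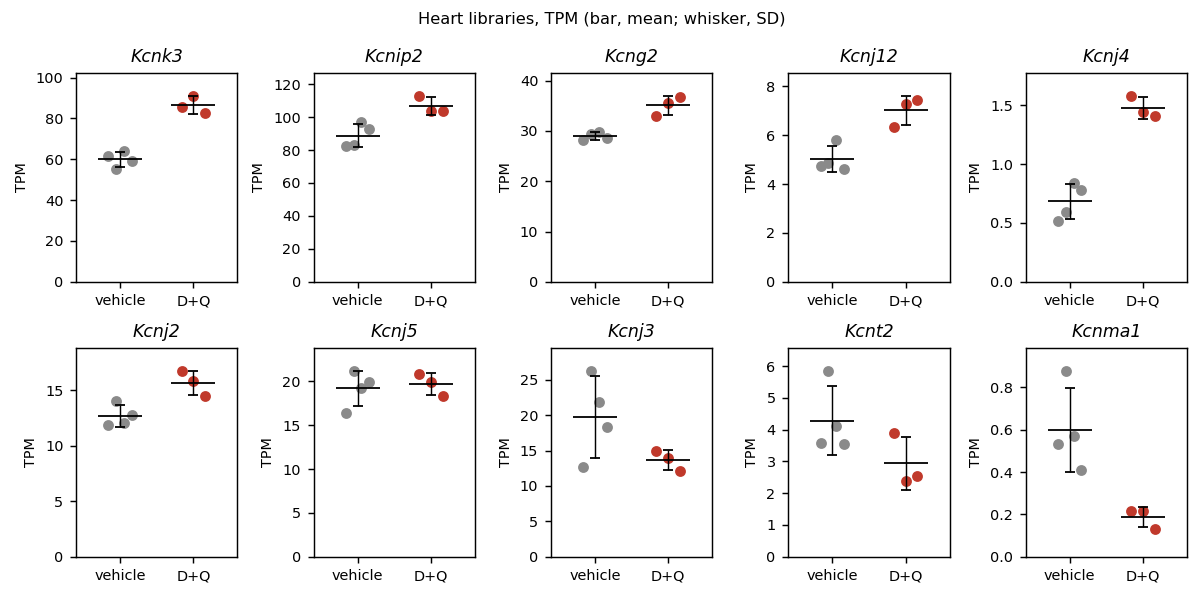
TPM of 10 members in each heart library (y axis, from 0; points, mice; bar, mean; whisker, SD) for 4 vehicle-treated and 3 D + Q–treated mice. Kcnk3, Kcnip2, Kcng2, Kcnj12, Kcnj4 and Kcnj2 are higher in every D + Q–treated heart, Kcnma1 is lower in every one, and the groups overlap for Kcnj5, Kcnj3 and Kcnt2.

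On the lower side, Kcnma1 was at 0.532, 0.880, 0.571 and 0.410 TPM in vehicle-treated hearts and 0.214, 0.217 and 0.132 TPM in D + Q–treated hearts. The groups did not overlap, and the difference was -0.71 (SE 0.17; limma adjusted p = 0.121). All of these levels are low, and this gene, like Kcna4, passed the minimum through the vehicle-treated group alone. Its auxiliary subunit Kcnmb1 differed by -0.19 (SE 0.15; limma adjusted p = 0.558). Of the 4 smooth muscle markers, 3 were lower at an unadjusted p below 0.05, and 2 were lower without overlap. All 4 summed to 257 to 295 TPM in D + Q–treated and 222 to 390 TPM in vehicle-treated hearts. Most of that sum was Acta2, at 238 to 276 TPM in D + Q–treated and 200 to 347 TPM in vehicle-treated hearts. The part of these markers in the Kcnma1 value was not tested. Kcna4, of the slow transient outward current, was at 0.546, 0.875, 0.601 and 0.517 TPM and at 0.457, 0.354 and 0.369 TPM, a difference of -0.37 (SE 0.17; limma adjusted p = 0.311). Kcne4, an inhibitory auxiliary subunit, differed by -0.38 (SE 0.16), or by -0.16 without D + Q–treated replicate 3, and Kcnt2 by -0.53 (SE 0.18).

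The partner genes of the acetylcholine-gated channel had unlike log2 differences, neither of them called, and no test compared the 2. Kcnj3 was at 12.7, 26.3, 21.9 and 18.3 TPM in vehicle-treated hearts and 14.9, 14.0 and 12.2 TPM in D + Q–treated hearts, a difference of -0.55 (SE 0.15; limma adjusted p = 0.139) with groups that overlapped through vehicle-treated replicate 1. Kcnj5 was at 16.4, 21.2, 19.3 and 20.0 TPM and at 20.8, 20.0 and 18.3 TPM, a difference of 0.01 (SE 0.08). The ratio of Kcnj5 to Kcnj3 was 0.804 to 1.296 in vehicle-treated and 1.396 to 1.503 in D + Q–treated hearts, so the ranges did not overlap. The atrial light chain Myl7 was at 94.1, 730, 541 and 283 TPM in the 4 vehicle-treated hearts, the same order as Kcnj3, and at 3.99, 4.54 and 3.46 TPM in D + Q–treated hearts. Of the 5 atrial markers tested, 3 were called lower in D + Q–treated hearts, with a median log2 difference of -5.46. Their part in the Kcnj3 value was not tested.

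Among the ATP-sensitive channel genes in the heart, the pores showed small differences. Kcnj11 differed by 0.11 (SE 0.07) and Kcnj8 by 0.07 (SE 0.09), with overlapping groups. The receptor gene Abcc9 was at 71.2, 67.0, 74.5 and 73.7 TPM in vehicle-treated hearts and at 101, 101 and 90.2 TPM in D + Q–treated hearts. Its groups were apart and the difference was 0.44 (SE 0.07; limma adjusted p = 0.0658), which did not pass. Abcc8 differed by -0.11 (SE 0.12). The ratio of Abcc9 to Abcc8 was 7.27 to 11.3 in vehicle-treated and 10.8 to 14.3 in D + Q–treated hearts, which overlapped. Kcne1 was at 4.44, 6.97 and 6.08 TPM in D + Q–treated hearts, above both males of the vehicle group, whose females were at 5.57 and 6.38 TPM. All 3 D + Q–treated hearts read female by their sex-linked transcripts. With labelled sex in the fit Kcne1 differed by 0.42 (SE 0.28; limma adjusted p = 0.478).

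In the TA, D + Q treatment was compared with vehicle at an early stage of disease. By limma, 0 of 35 members were called higher and 0 lower, where 0% and 0% of all 16298 genes were called. The study's own test, DESeq2 on counts, did report up- and downregulated genes in the TA, so these values hold for limma on TPM. At an unadjusted p below 0.05 there were 0 and 0 members, against 0.638% and 2.36% of all genes, and groups that did not overlap were found for 0 and 0 members, against 0.264% and 1.25%. The median log2 difference was -0.09 over the members and -0.07 over all genes. Of the members, 10 were above 0 and 25 below, where 33.6% of all genes were above 0. With median-of-ratios scaling the median of all genes was near 0 and 2 members were higher at an unadjusted p below 0.05.

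The main fibre channels were at close levels in the TA groups. Kcnc1 was at 43.0, 51.6, 40.4 and 43.1 TPM in D + Q–treated TA, which overlapped the vehicle-treated range, a difference of -0.09 (SE 0.14). Kcnc4 was at 37.9, 38.1, 35.6 and 36.6 TPM, a difference of -0.19 (SE 0.16). Kcnj11 was at 28.9, 40.9, 36.7 and 39.1 TPM, a difference of -0.09 (SE 0.17), and Kcna7 and Kcnma1 differed by 0.07 (SE 0.19) and -0.03 (SE 0.14). The limma adjusted p was 0.999 for each member tested, those of all 4 channel lists included.

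The smallest unadjusted p belonged to Kcnf1, 0.0509, with 1.14, 0.770, 1.22 and 0.492 TPM in vehicle-treated and 0.564, 2.36, 2.54 and 1.21 TPM in D + Q–treated TA. Kcnj15, an inward rectifier of epithelia, was at 0.467 to 0.986 TPM in vehicle-treated and 0.827 to 1.56 TPM in D + Q–treated TA, a difference of 0.50 (SE 0.24). Both were low and their groups overlapped. On the other side Kcne4 differed by -0.51 (SE 0.26), Kcnn3 by -0.48 (SE 0.26), Kcnk2 by -0.36 (SE 0.23), Kcnj8 by -0.40 (SE 0.29) and Kcne5 by -0.49 (SE 0.36). Single mice moved these values: without D + Q–treated replicate 3 Kcnn3 was at -0.21 and Kcnk2 at -0.19, without vehicle-treated replicate 2 or 3 Kcnn3 was at -0.29 or -0.75, and without vehicle-treated replicate 1 Kcne4 was at -0.33 and Kcnj8 at -0.20. Kcnj8 was at 16.1 and 13.5 TPM in vehicle-treated replicates 1 and 2 and at 5.56 to 10.6 TPM in the other 6 TA libraries. Pericyte markers, of the cells that carry Kcnj8 in vessels, summed to 214 to 298 TPM in vehicle-treated and 195 to 271 TPM in D + Q–treated TA, and their part was not tested.

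Some of these values differed between labelled females and males, as did those of many other genes. Kcnn3 was at 15.6 and 12.0 TPM in the 2 vehicle-treated females, at 8.03 and 6.95 TPM in the 2 vehicle-treated males and at 9.19, 6.57, 6.48 and 6.55 TPM in the D + Q–treated males. Kcng4 was at 5.69 and 2.96 TPM in the females, 12.2 and 13.5 TPM in the vehicle-treated males and 8.96, 12.1, 14.3 and 9.90 TPM in the D + Q–treated males. The females thus lay outside the range of all 6 males for both, higher for Kcnn3 and lower for Kcng4. Kcnk2, a mechanosensitive leak channel, was at 1.27 and 1.57 TPM in females and at most 0.891 TPM in males. Kcne5, which lies on the X chromosome, was at 1.73 and 0.864 TPM in females and at most 0.711 TPM in males. It reached 0.5 TPM in 4 TA libraries, both females among them, and passed the minimum only with the females included.

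Of the 35 members, females and males did not overlap for 4 that were higher in females and 2 that were lower, against 9.77% and 2.43% of all genes, so the count of 4 was near the share of all genes. Kcne5, 1 of the 4 that were higher, passed the minimum only through the females. Among the lower ones was Kcnk5, named after its values were seen. With 2 females, both given vehicle, sex and treatment overlap in part: in the males alone, 4 D + Q–treated and 2 vehicle-treated mice, the difference was -0.06 for Kcnn3 and -0.20 for Kcng4, which changed sign, and 0 members were called. That comparison was added after the values were seen.

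**Figure D5:**
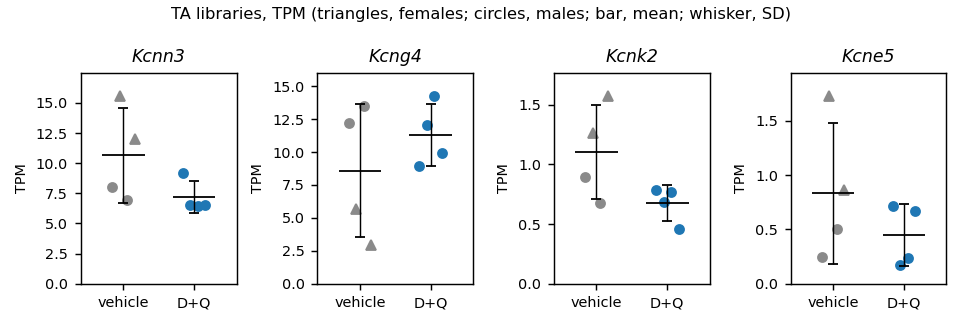
TPM of Kcnn3, Kcng4, Kcnk2 and Kcne5 in the TA libraries (y axis, from 0; triangles, females; circles, males; bar, mean; whisker, SD) of 4 vehicle-treated and 4 D + Q–treated mice. The 2 female vehicle-treated mice lie above all 6 males for Kcnn3, Kcnk2 and Kcne5 and below them for Kcng4. Kcne5 passed the TPM minimum only with the females included.

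The test of whether the D + Q difference itself differed between heart and TA called 0 of 50 members in each direction by limma, where 0.0171% and 0.0457% of all genes were called. At an unadjusted p below 0.05 there were 3 members with a higher difference in heart, Kcnk3, Kcnj4 and Kcng2, against 3.72% of genes, and 3 with a lower one, Kcnma1, Kcnj3 and Kcnj15, against 1.84%. Kcnk3 had an interaction of 0.67 (SE 0.16; limma adjusted p = 0.259) and Kcnj4 of 0.78 (SE 0.19; limma adjusted p = 0.275). These 2 genes, with Kcng2 and Kcnj3, passed the minimum through the heart alone and reached no more than 0.557, 0.0377, 0.0998 and 0.1297 TPM in any TA library, so for them the interaction largely restates the heart difference. For Kcnma1, which is abundant in TA, the interaction was -0.59 (SE 0.21; limma adjusted p = 0.751). The D + Q effect on these genes was therefore not shown to differ between the tissues.

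A further list held 31 genes of potassium currents and muscle excitability that do not carry a Kcn symbol. Between the vehicle-treated tissues 28 were tested, with 10 higher and 8 lower in TA, against the 23.1% and 14.4% of all genes given above. The fibre chloride channel Clcn1 and the fibre sodium channel Scn4a were higher in TA by 4.90 (SE 0.19) and 3.73 (SE 0.18). The sodium pump subunit Atp1b2 was higher in TA by 4.02 (SE 0.12), and the potassium-chloride cotransporter Slc12a7 was higher in heart, at -3.08 (SE 0.17).
In D + Q–treated hearts, 0 of 27 were called by limma, and 10 were higher and 1 lower at an unadjusted p below 0.05. All genes had 9.65% and 7.99% by that p. Groups did not overlap for 8 genes that were higher, against 9.63% of all genes. The caveolin Cav3 and Slc12a7 differed by 0.46 (SE 0.09) and 0.34 (SE 0.09), and Lrrc52, an auxiliary protein of BK-type channels, by 0.75 (SE 0.16), with limma adjusted p of 0.0999, 0.133 and 0.101. In D + Q–treated TA, 26 were tested and 0 were called, with 0 at an unadjusted p below 0.05.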

How the data were processed

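Total RNA from 8 TA muscles and 7 hearts was sequenced in bulk, 1 library per mouse. Per the labels and the study's methods, the authors trimmed reads with Trim Galore 0.6.10, quantified them with Salmon 1.10.3 against GRCm39 and deposited 1 table of gene-level TPM (a transcript level normalized for length that sums to the same total in each library). TPM keeps no read depth, so depth is unknown and precision comes only from the spread between mice. Groups, sex, ages and doses came from the labels. GENCODE M39 gave 56236 of 56980 gene IDs a symbol and a biotype.

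Genes that reached 0.5 TPM in 3 or more of a tissue's libraries were tested on log2(TPM + 0.5) with limma 3.58.1 (trended variance) in R 4.3.3. The TA fit had 1 surrogate variable and the heart fit labelled sex, as in the study's methods. The tissue and interaction contrasts used 4 group means over 15 libraries. Calls needed a Benjamini-Hochberg adjusted p below 0.05 over all genes tested and an absolute log2 difference above 0.5. The fits were tested on simulated data. Alternatives were other pseudocounts, filters, scalings and covariates, a replicate block and leaving out each library.

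The members and gene lists were chosen with earlier results of these data known. Genes named were members called under treatment, the 5 of smallest p per direction and tissue, the 8 most abundant per tissue, the 6 of largest tissue difference per direction, and members of 4 channel lists (skeletal muscle, cardiac repolarisation, immune, vascular), with other genes only from lists. Exceptions are marked in the text. Coding sequences were read from GENCODE M39 transcripts, 1 protein-coding transcript per gene. Same-numbered D + Q– and vehicle-treated mice did not deviate together, with mean correlations of -0.121 in TA and 0.00331 in heart. The numbers were therefore not used as pairs in the main fits, though 4 and 3 such pairs cannot exclude a pairing. Some genes of these lists are not reported here by name and are left out of the figures, but stay in the counts.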

Additional observations from a re-analysis of the deposited data

Results flagged for a closer look

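Of 96 sets of 4 replicates of the named members, 6 had a single library set far from the other 3 by Dixon's criterion, and about 1 in 20 is expected by chance. Kcna5 was at 9.49 TPM in vehicle-treated TA replicate 2, with the next at 5.76 TPM, and Kcnab1 was at 0.488 TPM in vehicle-treated heart replicate 3, with the next at 0.916 TPM. Kcnh2 was at 3.43 TPM in D + Q–treated TA replicate 2, with the next at 1.35 TPM, and Kcnk13 at 1.06 TPM in vehicle-treated TA replicate 3, with the next at 0.460 TPM. D + Q–treated TA replicate 1 was the high library for Kcnn3, at 9.19 TPM with the next at 6.57 TPM, and for Kcnt2, at 1.40 TPM with the next at 1.05 TPM. That library also had the highest value of the surrogate variable, 0.703. No member was called in the test of a different D + Q effect in heart and TA.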

How the results depend on the processing

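The single potassium channel gene called in the heart, Kcnk3, was called in some fits and not in others. The count of members called higher there fell from 1 to 0 with no filter on low TPM, with median-of-ratios scaling, with limma without the trend, with sex read from expression as the covariate and with the replicate block (limma adjusted p = 0.142 for Kcnk3). Leaving out 1 heart at a time gave 0 or 1, with 1 only without vehicle-treated replicate 3. The replicate block gave 0 members called in TA. In the heart it took the members lower at an unadjusted p from 4 to 1 and the calls over all genes from 17 higher and 34 lower to 0 and 4. In the TA, Kcng4 turned from 0.52 to -0.20 with labelled sex as a covariate and to -0.20 in males only, an alternative added after the values were seen. Both TA females were vehicle-treated, so these fits give the same difference by design and are not separate checks. Kcng4 ranged from -0.28 (without D + Q–treated replicate 3) to 0.93 when 1 mouse was left out. Kcne5 turned from -0.49 to 0.090 with labelled sex, and Kcnab1 ranged from -0.011 (without D + Q–treated replicate 3) to 0.35 when 1 mouse was left out, from 0.20 with all mice. None of these TA values passed the test in any fit. The cause of these changes was not tested. Counts of members called in the tissue comparisons stayed within 1.5 times of the main ones. TPM carries no depth, so low genes such as Kcnma1 and Kcnj4 in heart have unknown counting error.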
